A study of Mus musculus with 2 samples.

Results

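The vascular endothelial growth factor (VEGF) ligands Vegfa, Vegfb, Vegfc and Vegfd, their receptors Kdr and Flt1, their co-receptors Nrp1 and Nrp2, and the adhesion molecule Pecam1 were described in single cells of mouse skin. These are 9 of the 32285 genes in the count matrix. The 9 genes were chosen from measured values of these same cells, because Pecam1 and Kdr counts lay in fibroblasts where few endothelial cells were found, so their levels are given as a description and without a test. Counts were read over the 8127 barcodes with at least 200 genes and at most 20% mitochondrial counts, and all 9 genes had more than 50 unique molecular identifiers (UMIs, one per captured RNA molecule) in them.

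Skin of C57BL/6 mice at 8 weeks of age was digested for an hour with Liberase and DNAseII. One group of samples was control skin, and in the other neutrophils had been depleted at steady state with an anti-Ly6G antibody, clone 1A8, on 2 consecutive days, with the series asking what that does to the skin transcriptome. Cells of both were marked with hashtag antibodies and pooled into 1 RNA library, whose barcodes carry no condition in the matrix. Control and depleted cells were therefore not separated, every value describes the pool, and with 1 library no p-value was computed. The number of animals in the pool is not given in the sources used here, and intervals cover counting error only.

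VEGF ligands are secreted proteins that bind receptor tyrosine kinases, which are known mainly from endothelial cells. Kdr is the main signalling receptor for VEGF-A, while Flt1 binds VEGF-A and VEGF-B tightly and signals weakly. Vegfc and Vegfd encode the ligands best known for the growth of lymphatic vessels, and the neuropilins Nrp1 and Nrp2 bind VEGFs as well as class 3 semaphorins. Pecam1, also known as CD31, is a cell adhesion molecule of endothelial cells, platelets and leukocytes and is widely used as an endothelial marker.

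In the GENCODE M21 annotation of mm10 (GRCm38), all 9 are protein-coding genes. Vegfa lies on chromosome 17 from 46016993 to 46032369 (minus strand), Vegfb on chromosome 19 from 6982473 to 6987651 (minus), Vegfc on chromosome 8 from 54077606 to 54187096 (plus) and Vegfd on chromosome X from 164373378 to 164402650 (plus). Both kinase receptors lie on the minus strand of chromosome 5, Kdr from 75932827 to 75978458 and Flt1 from 147561604 to 147726011. Nrp1 lies on chromosome 8 from 128358604 to 128503363 (plus), Nrp2 on chromosome 1 from 62703285 to 62818695 (plus) and Pecam1 on chromosome 11 from 106654217 to 106750628 (minus). Only the Nrp1 and Nrp2 intervals overlap other annotated genes. The antisense gene Gm29083 inside the Nrp2 interval had 2 UMIs, and Mir1903 and Gm37121 had no row in the matrix.

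Promoter windows of 8 of the 9 genes were matched in RefSeq (GRCm38.p6). The 250 bases before the RefSeq start are shown for Vegfc and Nrp2, which were high together in fibroblast-like clusters 7 and 13, and for Vegfd and Kdr, which were low there. The RefSeq start can differ from the GENCODE start given above, so the Vegfd, Nrp2 and Kdr windows reach into the gene intervals listed there. Capitals mark the GC box, searched as GGGCGG on both strands, so that the reverse complement CCGCCC is in capitals too, and a longer run holds overlapping matches.
Vegfc, chr8:54077282-54077531 on the plus strand: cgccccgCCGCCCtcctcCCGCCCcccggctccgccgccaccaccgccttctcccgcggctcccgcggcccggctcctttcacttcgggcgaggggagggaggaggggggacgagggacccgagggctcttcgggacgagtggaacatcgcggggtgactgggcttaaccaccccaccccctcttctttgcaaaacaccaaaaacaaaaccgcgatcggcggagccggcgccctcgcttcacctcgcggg
Nrp2, chr1:62703067-62703316 on the plus strand: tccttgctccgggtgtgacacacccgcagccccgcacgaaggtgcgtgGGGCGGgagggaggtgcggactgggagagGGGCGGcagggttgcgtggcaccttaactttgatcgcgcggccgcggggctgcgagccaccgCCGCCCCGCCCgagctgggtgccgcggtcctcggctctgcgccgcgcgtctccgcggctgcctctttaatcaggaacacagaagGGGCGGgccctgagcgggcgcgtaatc
Vegfd, chrX:164373272-164373521 on the plus strand: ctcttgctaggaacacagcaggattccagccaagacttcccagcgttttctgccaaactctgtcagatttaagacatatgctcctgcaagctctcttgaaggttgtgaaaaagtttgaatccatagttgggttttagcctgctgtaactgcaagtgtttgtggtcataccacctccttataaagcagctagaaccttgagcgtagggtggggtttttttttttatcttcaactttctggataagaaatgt
Kdr, chr5:75978456-75978705 on the minus strand: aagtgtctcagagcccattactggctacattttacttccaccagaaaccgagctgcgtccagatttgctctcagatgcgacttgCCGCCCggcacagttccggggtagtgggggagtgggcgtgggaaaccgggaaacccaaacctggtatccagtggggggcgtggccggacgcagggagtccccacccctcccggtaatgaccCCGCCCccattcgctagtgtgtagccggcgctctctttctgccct
The Vegfc window had 2 matches and the Nrp2 window 5. The Kdr window had 2 matches and the Vegfd window 0. A match was present in 32.7% of all 32851 promoter windows of this length, and 3 of these 4 windows held one. So did every window of Vegfa, Vegfb, Flt1 and Nrp1, which are not printed. The GC content was 71.6% for Vegfc, 72.4% for Nrp2, 61.6% for Kdr and 42.4% for Vegfd. The window of Vegfd, with the lowest GC content of the 4, also held 2 matches to GATAA, a motif found in 22.6% of all windows. The other windows printed held none of those, and a window of Vegfa held 1. A match is a run of letters and not a measured binding site.

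Of the 8127 barcodes, 326 were called doublets and kept apart, and the other 7801 fell into 28 clusters without use of the 9 genes. Named from marker genes, 3940 cells were fibroblast-like (8 clusters), 1424 macrophage-like, 1321 keratinocyte-like, 350 lymphoid-like, 264 dendritic-like, 263 monocyte-like and 97 skeletal muscle-like. Smaller classes were neutrophil-like (40 cells), mast-like (23) and pericyte or smooth muscle-like (19), and 60 cells stayed unnamed. No cluster had the markers of blood or lymphatic endothelium. Median depth was 10690 UMIs in fibroblast-like, 8360 in dendritic-like and 4745 in lymphoid-like cells, and levels are given as CPM, the UMIs of a gene per 1000000 UMIs of the group, with exact 95% Poisson intervals. For each gene, 2 levels are called apart where the exact interval of their ratio leaves out 1. CPM values are not scaled to gene length, so levels are compared between groups for the same gene and never between genes.

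Most Pecam1 and Kdr UMIs were counted in fibroblast-like barcodes. Of 2004 Pecam1 UMIs, 1356 (67.7%, exact Clopper-Pearson interval 65.6% to 69.7%) were in fibroblast-like barcodes, which held 52.0% of the UMIs of all genes. Of 1277 Kdr UMIs, 1186 (92.9%, 91.3% to 94.2%) were there. Barcodes with at least 3 of 12 blood endothelial markers, none of which is among the 9 genes, are called the endothelial gate here. They held 33 Pecam1 UMIs (1.65%, 1.14% to 2.30%) and 15 Kdr UMIs (1.17%, 0.659% to 1.93%). Outside the gate, fibroblast-like barcodes still held 66.0% of Pecam1 (63.9% to 68.1%) and 91.7% of Kdr (90.0% to 93.2%).

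The remaining Pecam1 UMIs were spread over blood-derived classes, with 276 (13.8%) in macrophage-like, 102 (5.09%) in lymphoid-like and 75 (3.74%) in dendritic-like cells, and called doublets held 134. For Kdr no other class held more than 8 UMIs, and called doublets held 63. When each barcode took its class from its own markers and not from its cluster, 2836 barcodes were fibroblast-like and 1598 unnamed, and the fibroblast share fell to 46.4% for Pecam1 and 75.9% for Kdr. The Pecam1 level in the cells that were fibroblast-like under that rule was 27.4 CPM.

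**Figure D1:**
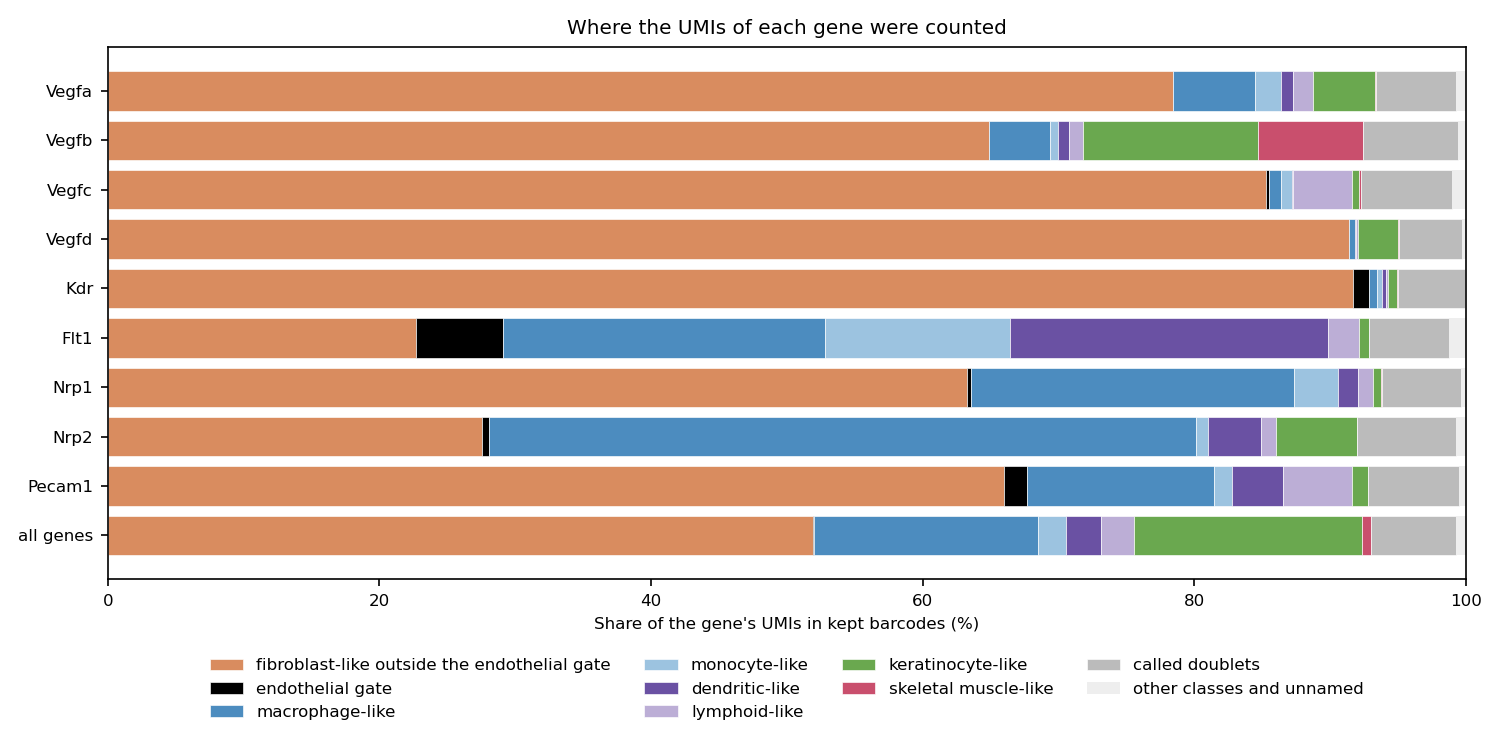
Each bar splits the UMIs of a gene over classes of barcodes, in percent of its UMIs in kept barcodes; the last bar does so for all genes together. The endothelial gate is a thin black band at 1.65% for Pecam1 and 1.17% for Kdr and reaches 6.42% for Flt1, while fibroblast-like barcodes outside it hold 91.7% of Kdr.

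The endothelial gate held 12 barcodes, all placed in fibroblast-like cluster 5 by the clustering, with 903 to 32733 UMIs (median 2825). Pecam1 was detected in 9 of them, Kdr in 8 and Flt1 in 7. Levels in the gate are over its 86128 summed UMIs, most of them from 2 deep barcodes without Pecam1, Kdr or Flt1. They describe this mixed set and are not the level of endothelial cells alone. Over the summed gate Pecam1 stood at 383 CPM (264 to 538), against 30.5 in fibroblast-like barcodes outside the gate, a ratio of 12.5 (8.60 to 17.7). Kdr stood at 174 CPM (97.5 to 287) against 27.0, a ratio of 6.44 (3.59 to 10.7). Flt1 separated the groups most, at 302 CPM (197 to 442) against 2.12, a ratio of 142 (88.2 to 222). The neuropilins were also higher in the gate, Nrp1 at 197 CPM against 82.7 and Nrp2 at 163 CPM against 17.2. Of the ligands, Vegfd was lower over the summed gate, at 81.3 CPM (32.7 to 167) against 229 outside. Vegfa was lower too, with 1 UMI in the 12 barcodes (ratio 0.161, 0.00409 to 0.900). The 2 deep barcodes had no Vegfa or Vegfd. All 7 Vegfd UMIs were in 2 others, with 28 and 20 UMIs of the fibroblast marker Dcn. Whether these ligands were lower in the gate without the 2 deep barcodes was not tested. Vegfb had 0 UMIs and Vegfc 2, and neither was apart from the level outside, with Vegfc at 23.2 against 15.5 CPM (ratio 1.499, 0.181 to 5.44).

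These 12 barcodes were of more than 1 kind. Dcn, which encodes the fibroblast proteoglycan decorin, was at 0 UMIs in 6 of them and at 10 or more in 4. The 2 deepest, with 19089 and 32733 UMIs, had 54 and 128 Dcn UMIs, the minimum of 3 endothelial markers, and no Pecam1, Kdr or Flt1. Another 2 carried 129 and 26 UMIs of Ccl21a, a chemokine of lymphatic endothelium, and each had 2 UMIs of either Pecam1 or Kdr and none of the other. The barcode with the most markers, 10 of 12, had 10 Pecam1, 2 Kdr and 6 Flt1 UMIs and no Dcn. With 4 or more markers required, 9 barcodes remained, and with 2 or more there were 51. The 39 barcodes with exactly 2 markers, just outside the gate, had Pecam1 at 18.8 CPM, and the 3 with exactly 3 markers, just inside it, had 75.9 CPM from 4 UMIs in 1 barcode.

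**Figure D2:**
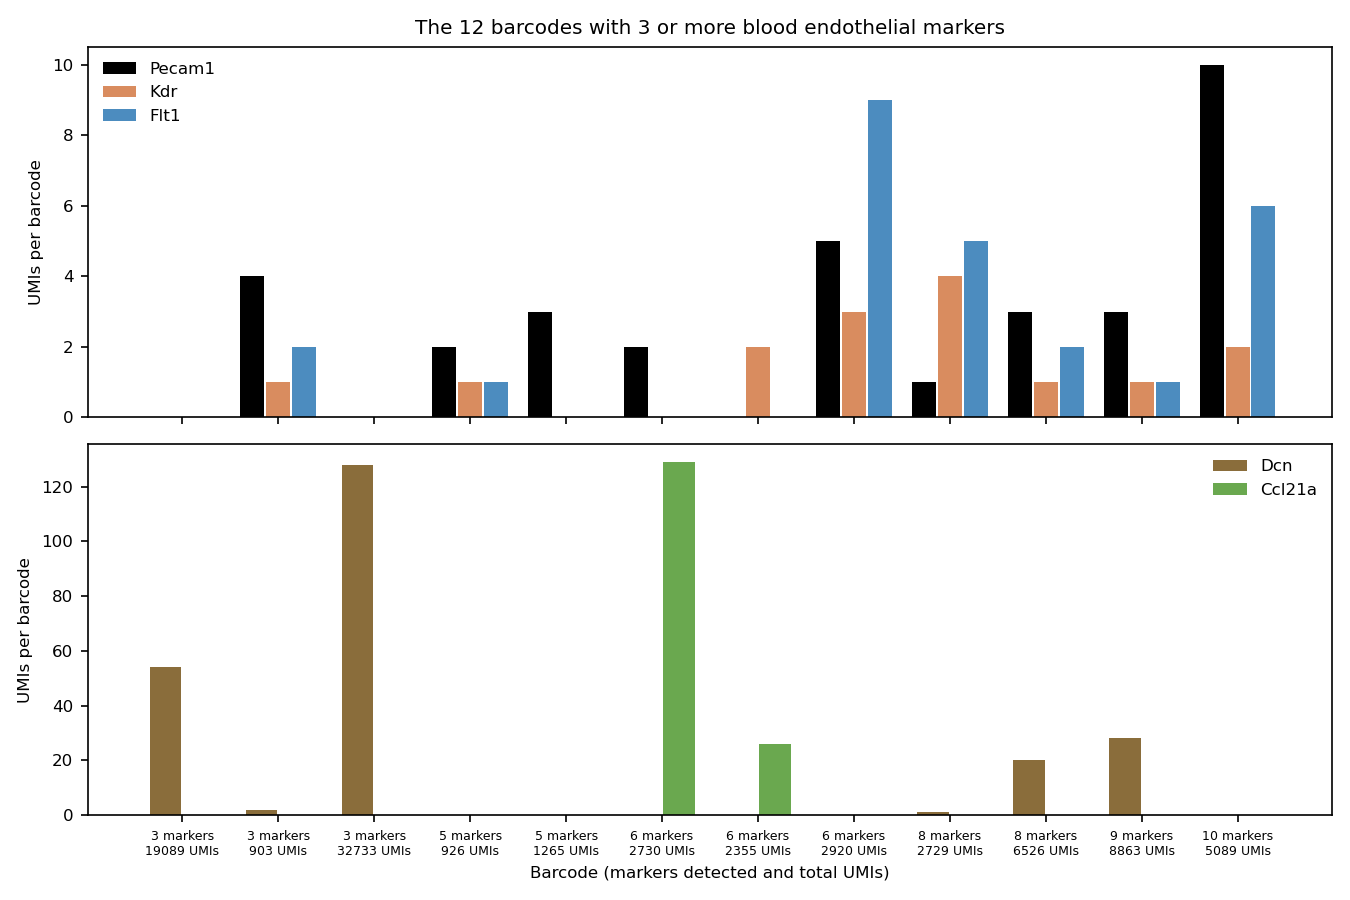
Each position on the x axis is 1 of the 12 barcodes of the endothelial gate, labelled with its number of markers and total UMIs; the upper bars give its Pecam1, Kdr and Flt1 UMIs and the lower bars its Dcn and Ccl21a UMIs. The 2 barcodes with the most Dcn (54 and 128 UMIs) have none of the 3 genes above, and 129 and 26 Ccl21a UMIs stand in 2 others.

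Most fibroblast-like barcodes that carried Pecam1 or Kdr also carried the fibroblast markers from which the class is named. Pecam1 was detected in 416 of 3940 fibroblast-like barcodes (10.6%, 9.62% to 11.6%), with up to 26 UMIs in a barcode, and 389 of the 416 had at least 5 of the 6 fibroblast markers (Dcn, Lum, Col1a1, Col1a2, Col3a1 and Pdgfra). So did 3115 of the 3524 without Pecam1 (88.4%), against 93.5% of those with it, and 9 of the 416 were in the gate. Their median Dcn count was 119.5 UMIs, against 107 in the barcodes without Pecam1. The barcodes with Pecam1 were also deeper, with a median of 12982.5 UMIs in all against 10334. The Dcn counts and marker shares are not adjusted for that depth, so they do not rank the 2 sets. Among the 162 barcodes with 3 or more Pecam1 UMIs, 156 had at least 5 fibroblast markers, 6 were in the gate and 5 had no Dcn. Macrophage markers, at least 3 of the 6, were found in 2 of the 416 barcodes.

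Kdr was detected in 730 fibroblast-like barcodes (18.5%, 17.3% to 19.8%), of which 718 had at least 5 fibroblast markers and 8 were in the gate. Pecam1 and Kdr were found together in 94, of which 7 were in the gate. Kdr did not follow Pecam1 closely: it was seen in 22.6% of barcodes with Pecam1 and in 18.0% of those without, at 28.8 and 27.1 CPM. In keratinocyte-like cells of nearly the same median depth (10665 UMIs), Pecam1 was seen in 1.51% of cells (0.927% to 2.33%) and Kdr in 0.303% (0.0826% to 0.773%). The part of stray RNA in the counts of either class was not tested. After each cell was thinned to 1000 UMIs, Pecam1 was seen in 2.53% of fibroblast-like and 0.153% of keratinocyte-like cells. Kdr was then seen in 2.40% and in 0 of 1309 keratinocyte-like cells, which allows a Kdr UMI at that depth in up to 0.229% of cells and does not limit the share that express it.

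Not all genes of the blood endothelial list marked the same barcodes. Cldn5 (30 of 31 UMIs) and Tie1 (7 of 7), which are among the 12 markers that define the gate, were counted almost entirely in it. So was Ccl21a of the lymphatic list (155 of 156 UMIs), which was not used to define it. Ecscr, in contrast, had 1107 UMIs with 92.9% in fibroblast-like barcodes outside the gate, and Plvap had 732 with 447 of them in fibroblast-like cluster 7. Sox18, a transcription factor also known from hair follicle development, had 42 of its 52 UMIs in cluster 7. Of the platelet genes, Ppbp and Gp9 had 4 UMIs each and Gp1bb 14, while Itga2b had 898, of which 88.0% were in fibroblast-like barcodes outside the gate. These lists were put together with earlier results of these cells known.

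Among the ligands, Vegfd showed the largest contrast between classes. It had 9934 UMIs in fibroblast-like cells, at 229 CPM (224 to 233), and was detected in 60.5% of them. All other classified cells together stood at 12.3 CPM, a ratio of 18.6 (16.9 to 20.6). Keratinocyte-like cells followed among the classes of 50 or more cells at 22.7 CPM (20.3 to 25.4), then skeletal muscle-like at 14.1 and lymphoid-like cells at 8.43, and these neighbours were not apart. Of the smaller classes, the 23 mast-like cells had 140 CPM (60.4 to 276) from 8 UMIs. Fibroblast-like cells were not apart from them, with a ratio of 1.64 (0.830 to 3.79). Pericyte or smooth muscle-like cells had 43.3 CPM from 5 UMIs. Macrophage-like cells stood at 3.26, and monocyte-like cells had 0 UMIs. In lymphoid-like cells the level fell to 1.04 CPM once the 7 barcodes with 10 or more Dcn UMIs were left out, and in macrophage-like cells to 1.78, so Vegfd there moved with Dcn. The part of the Dcn-rich barcodes in these levels was not tested further. The 40 neutrophil-like cells had 19 Vegfd UMIs in 2 barcodes, and 0 without the barcodes of 10 or more Dcn UMIs.

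Vegfa, the ligand of blood vessel growth and permeability, was present in every class. Fibroblast-like cells stood at 71.8 CPM (69.3 to 74.3) and monocyte-like cells at 43.4 (34.1 to 54.5), followed by lymphoid-like cells at 29.8 (22.7 to 38.3). Macrophage-like cells (17.4), dendritic-like cells (16.4), keratinocyte-like cells (12.8) and skeletal muscle-like cells (8.80) came next. Lymphoid-like cells were apart from macrophage-like cells, with a ratio of 1.71 (1.27 to 2.28), and neighbours below that did not differ beyond counting error. The 23 mast-like cells had the highest level, 210 CPM (108 to 367), from 12 UMIs, while the 40 neutrophil-like (47.5 CPM) and 19 pericyte or smooth muscle-like cells (43.3 CPM) had 10 and 5 UMIs and were not apart from their neighbours. Within lymphoid-like cells the natural killer-like cluster stood at 63.7 CPM and the group 2 innate lymphoid-like cluster at 14.9. Hair follicle keratinocyte-like cells had 24.7 CPM against 11.4 in basal ones, a ratio of 2.17 (1.51 to 3.09).

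Vegfb, a ligand of Flt1 linked to muscle and heart, had its highest level in skeletal muscle-like cells, 234 CPM (196 to 277) from 133 UMIs. It was detected in 52.6% of those 97 cells. Pericyte or smooth muscle-like cells followed at 77.9 CPM from 9 UMIs, then fibroblast-like (25.6) and keratinocyte-like cells (15.7). Each of these 4 levels was apart from the next. Lymphoid-like, dendritic-like, monocyte-like and macrophage-like cells lay between 5.58 and 8.43 CPM and were not apart from each other.

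Vegfc was low and uneven. Fibroblast-like cells stood at 15.5 CPM (14.4 to 16.7) and lymphoid-like cells at 16.9 (11.7 to 23.6), and the 2 were not apart. The 23 mast-like cells had 122 CPM from 7 UMIs in 2 barcodes. Macrophage-like, dendritic-like and keratinocyte-like cells had 7, 1 and 4 UMIs, each under 1 CPM. In lymphoid-like cells the 34 UMIs came from the group 2 innate lymphoid-like (22 UMIs, 20.5 CPM) and natural killer-like clusters (12 UMIs, 17.4 CPM), and the level was 16.7 CPM without the barcodes of 10 or more Dcn UMIs.

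**Figure D3:**
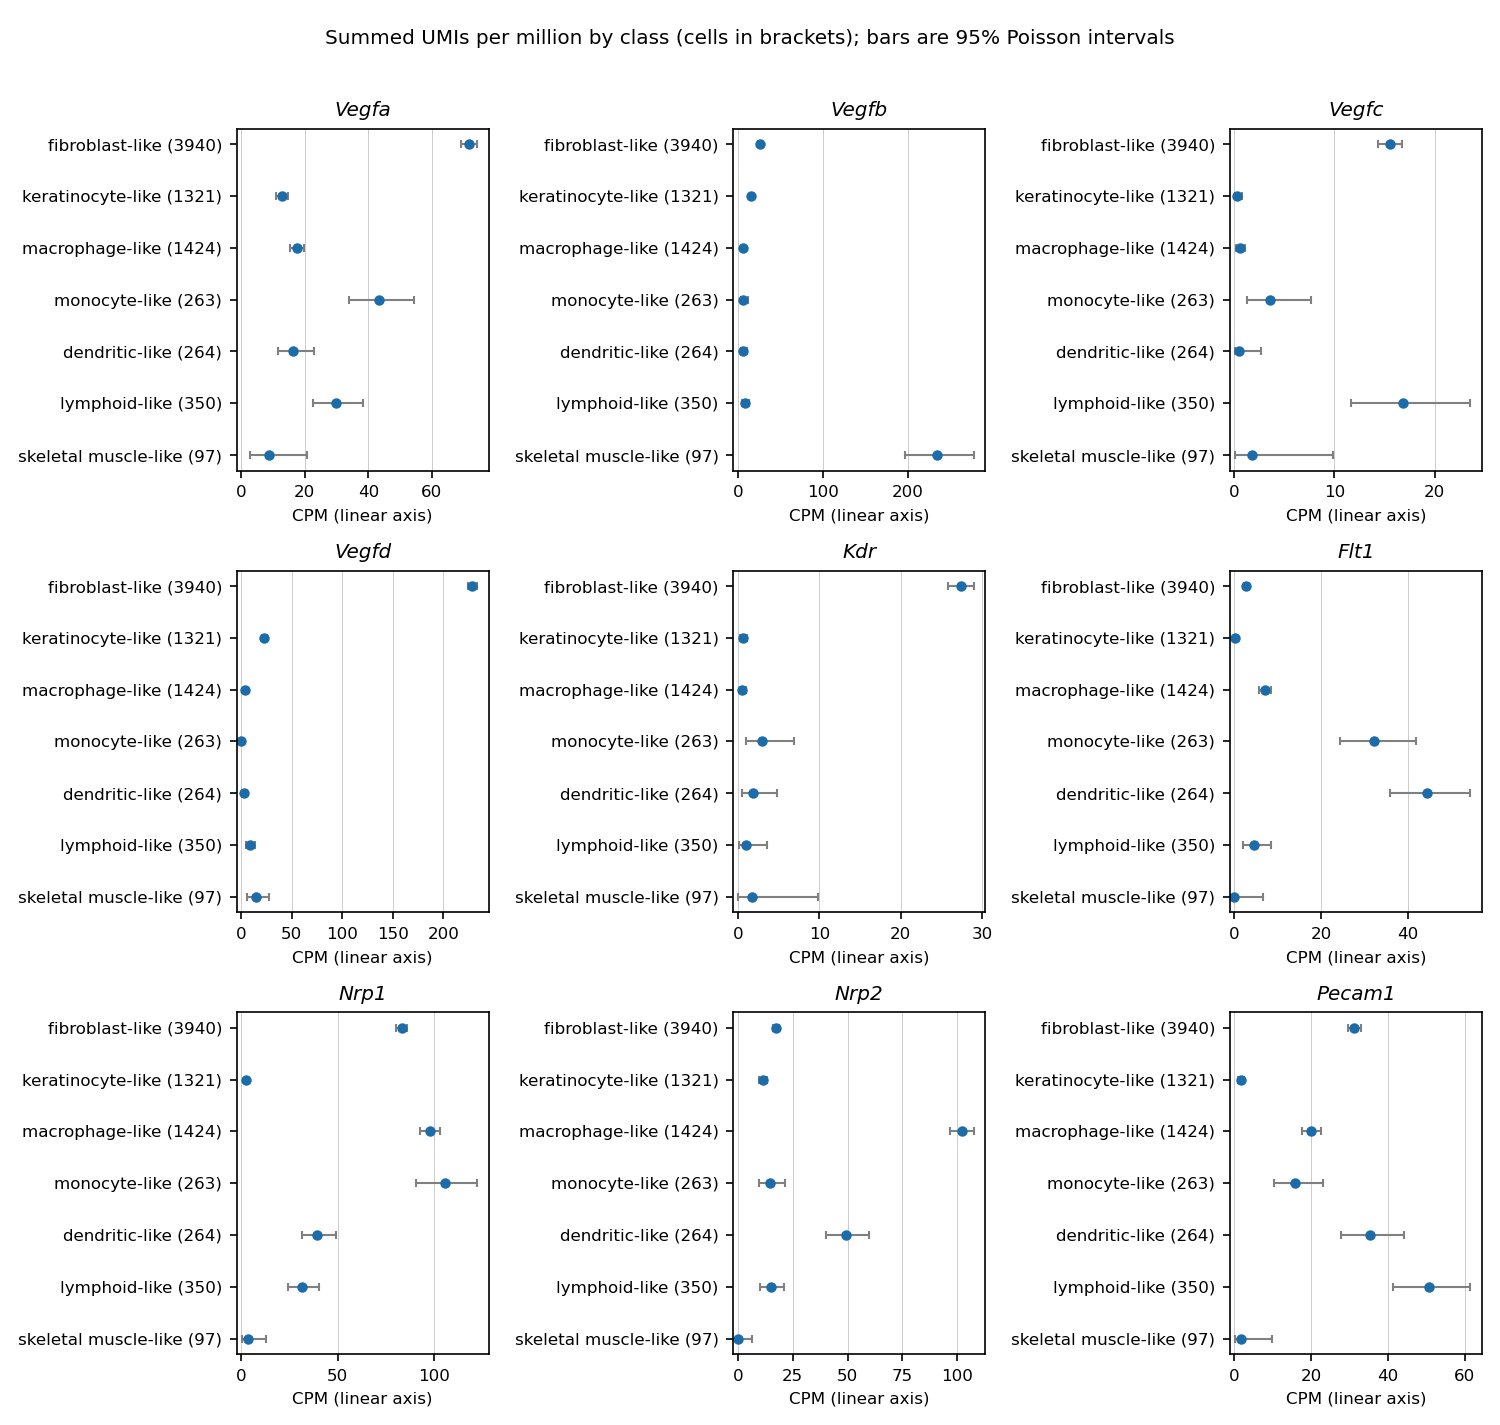
Each panel gives 1 gene, with CPM on a linear x axis and the classes of 50 or more named cells on the y axis; points are CPM of the summed UMIs and bars are exact 95% Poisson intervals. Kdr and Vegfd stand out in fibroblast-like cells (27.3 and 229 CPM), Nrp2 in macrophage-like cells (102), Flt1 in dendritic-like cells (44.6) and Vegfb in skeletal muscle-like cells (234).

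Of the kinase receptors, Kdr stood at 27.3 CPM (25.8 to 28.9) in fibroblast-like cells and at 0.804 in all other classified cells, a ratio of 34.0 (23.4 to 51.4). Monocyte-like (2.93), dendritic-like (1.88) and lymphoid-like cells (0.992) came from 5, 4 and 2 UMIs. Keratinocyte-like cells had 8 UMIs and no Kdr was left in them without the 19 barcodes of 10 or more Dcn UMIs.

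Flt1 had the opposite pattern, with 2.72 CPM (2.25 to 3.26) in fibroblast-like cells and 7.55 in the others, a ratio of 0.360 (0.287 to 0.449). Its 26 UMIs in the endothelial gate are part of the fibroblast-like sum, which was 2.12 CPM without them. Dendritic-like cells had 95 UMIs at 44.6 CPM (36.1 to 54.5), and monocyte-like cells had 55 at 32.2 (24.3 to 42.0), not apart from the former. Macrophage-like cells stood at 6.96 CPM, so that dendritic-like cells were 6.40-fold (4.77 to 8.59) higher. Flt1 was detected in 13.3% of dendritic-like, 15.2% of monocyte-like and 4.56% of macrophage-like cells. After thinning these shares were 6.59%, 4.05% and 1.23%, and in fibroblast-like cells 0.332%.

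The co-receptor Nrp1 was shared by stromal and myeloid cells. Monocyte-like cells stood at 106 CPM (90.7 to 122), macrophage-like at 97.6 (92.5 to 103) and fibroblast-like at 83.0 (80.3 to 85.7), with the first pair not apart and macrophage-like over fibroblast-like cells at a ratio of 1.18 (1.10 to 1.25), whereas keratinocyte-like cells had 2.42. Within macrophage-like cells the level came largely from cluster 8, led by Lyve1, Cd209f and Cd209g, with 303 CPM (285 to 323) against 34.5 in the other 3 clusters, a ratio of 8.80 (7.79 to 9.95). Nrp1 was detected in 73.3% of the 405 cells of cluster 8. Hair follicle keratinocyte-like cells (9.11 CPM) exceeded basal ones (0.867 CPM).

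Nrp2, which binds VEGF-C and semaphorin 3F, was highest in macrophage-like cells among the larger classes, at 102 CPM (96.8 to 108) with 52.1% of all its UMIs. Fibroblast-like cells stood at 17.5 (16.2 to 18.8), a ratio of macrophage-like over fibroblast-like cells of 5.84 (5.34 to 6.39). All 4 macrophage-like clusters had it, at 59.5 to 134 CPM. Dendritic-like cells followed at 49.3 and monocyte-like cells at 14.7. In keratinocyte-like cells 153 of 161 Nrp2 UMIs were in the hair follicle-like cells, at 66.4 CPM (56.3 to 77.8), against 0.722 in basal and 0.624 in suprabasal cells.

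Pecam1 by level was not highest in fibroblast-like cells. Mast-like cells had 87.4 CPM from 5 UMIs in 1 barcode. Lymphoid-like cells stood at 50.6 CPM (41.3 to 61.4), above dendritic-like cells at 35.2 (27.7 to 44.1). Fibroblast-like cells at 31.2 (29.6 to 33.0) were not apart from dendritic-like cells and exceeded macrophage-like cells at 20.02 (17.7 to 22.5). The lymphoid level came from the group 2 innate lymphoid-like cluster, which also carried T cell markers, at 78.2 CPM (62.4 to 96.8), against 24.6 in the natural killer-like cluster and 3.99 from 1 UMI in the gamma-delta T cell-like cluster. Keratinocyte-like cells had 1.64 CPM. The ratio of fibroblast-like cells over all other cells was 2.12 (1.91 to 2.35), or 1.08 on the log2 scale, and dropped to 0.37 with classes from each barcode's own markers and to 0.81 with every cell weighing the same.

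The 4 macrophage-like clusters differed in several members. Cluster 2 (596 cells, led by Dcstamp) had Vegfa at 29.7 CPM (25.5 to 34.5), against 4.10 to 10.4 in clusters 8, 14 and 17, and Flt1 at 10.3 against 2.16 to 7.18. Cluster 8, with the high Nrp1, had Vegfb at 13.3 CPM (9.62 to 17.9), 4.12-fold (2.57 to 6.67) above the other macrophage-like clusters. Pecam1 stood at 27.3 CPM in cluster 2, 21.9 in cluster 8 and 14.0 in cluster 17, the last led by genes of cell division, and at 3.59 (1.44 to 7.40) in cluster 14. Macrophage-like barcodes with Pecam1 numbered 136, and 82 of them had no Dcn UMI.

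Of the 9 genes, 5 were more than 2-fold higher in fibroblast-like than in all other classified cells (Vegfa, Vegfc, Vegfd, Kdr and Pecam1), where 20.2% of 15279 genes with 50 or more UMIs were. Flt1 and Nrp2 were more than 2-fold lower, where 23.9% of genes were. The median log2 ratio of the 9 was 1.08, against -0.14 over all genes. Since the genes were chosen for this contrast, nothing is read from the counts.

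The fibroblast-like level of Pecam1 came largely from 1 of the 8 clusters. Cluster 9, with 290 cells (4.46% of all UMIs), held 907 Pecam1 UMIs, 45.3% (43.1% to 47.5%) of the total. Its level was 244 CPM (228 to 260). The other fibroblast-like clusters ranged from 0.326 CPM in cluster 10 to 32.2 in cluster 5, and stood at 11.3 together, a ratio of 21.5 (19.2 to 24.2). Of the 132 Pecam1 UMIs of cluster 5, 33 were in the barcodes of the endothelial gate. In cluster 9, Pecam1 was detected in 185 of the 290 cells (63.8%, 58.0% to 69.3%), in 104 of them with 3 or more UMIs, and in 19.7% after thinning. The 10 richest cells held 22.1% of the Pecam1 UMIs of cluster 9, so the level did not rest on a few barcodes.

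None of the 290 cells of cluster 9 was in the endothelial gate. Of the blood endothelial genes, Ecscr had 150 UMIs there, at 40.3 CPM, against 69.7 CPM in the gate. Plvap had 3 UMIs in the cluster and Sox18 0. The 9 remaining markers summed to 8 UMIs, 2.15 CPM, in the cluster, against 1765 CPM in the gate. Cdh5, Cldn5, Egfl7, Tie1, Erg and Sox17 had 0 UMIs. In the cells of the cluster with no endothelial marker at all, Pecam1 stood at 254 CPM. The cells kept a median of 106.5 Dcn UMIs, and 276 of them had at least 5 fibroblast markers. Reln, on the lymphatic endothelial list, had 68 of its 114 UMIs in cluster 9, while Mmrn1 and Ccl21a, on the same list, had 0. By fold over the other fibroblast-like clusters the cluster was led by Dnah12, Gm15997 and Reg4, and Pecam1 ranked 13.

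How sharply Pecam1 stood out depended on where the cluster was drawn. The best matching cluster had 237 CPM at a clustering resolution of 2, from 95.9 to 107 CPM with the stricter filters, with doublets kept or with the 9 genes among the clustering genes, and 49.4 CPM at resolution 0.5. Cells picked by 2 or more of the subset genes Rasgef1c, Cd55b and Adamts9, 276 in all with 147 in cluster 9, had 151 CPM against 19.0 in other fibroblast-like cells, a ratio of 7.93 (7.12 to 8.84). Since most of these cells were in cluster 9, which Rasgef1c helps to lead, this is not a separate observation. Among the other members in cluster 9, Nrp2 was lower than in the other fibroblast-like clusters, at 5.38 against 18.6 CPM, a ratio of 0.289 (0.176 to 0.450). Vegfd was lower as well, at 162 against 235 CPM (ratio 0.688, 0.633 to 0.747), and so was Vegfb, at 19.9 against 26.2 (0.760, 0.592 to 0.962). Kdr (29.6 against 27.1 CPM), Nrp1 (76.9 against 83.5), Vegfa, Vegfc and Flt1 had ratios whose intervals held 1. Over the 9 genes, Pecam1 was the 1 gene more than 2-fold higher in cluster 9 (7.10% of 12878 genes were) and Nrp2 the 1 more than 2-fold lower (5.50% of genes).

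**Figure D4:**
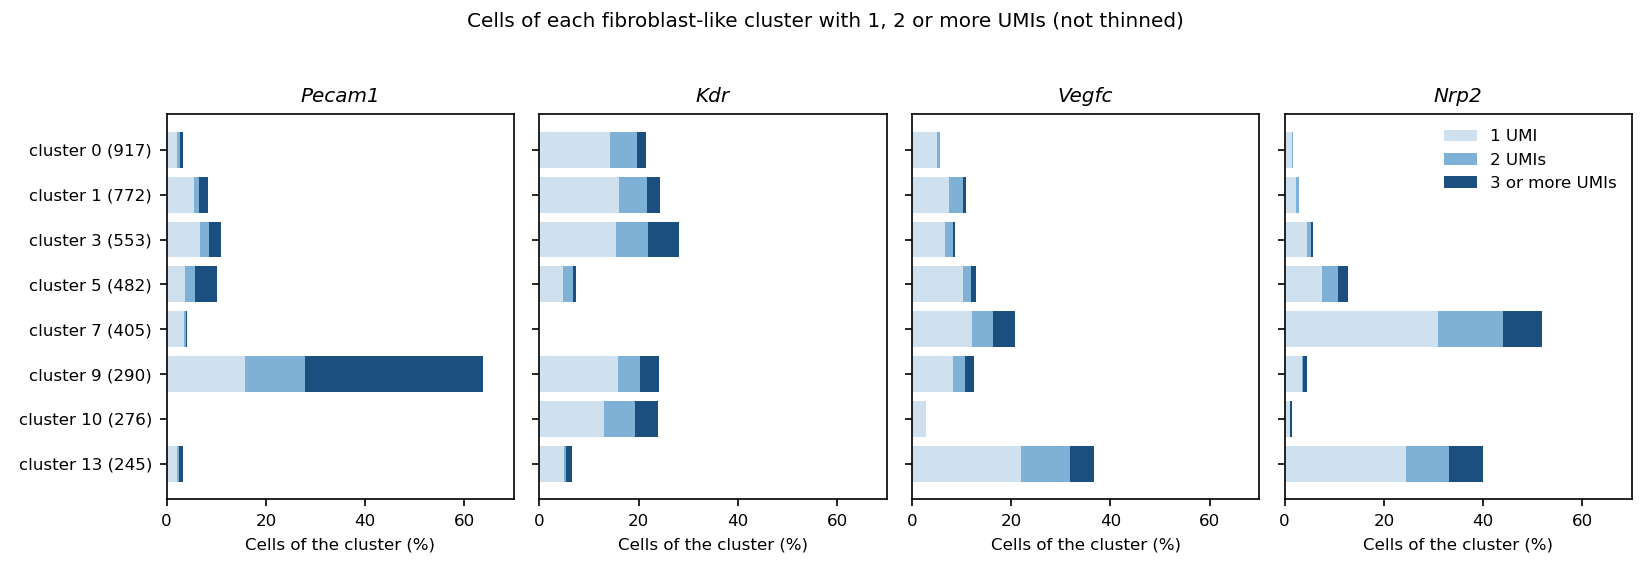
Bars give the percent of cells in each fibroblast-like cluster with 1, 2 or 3 and more UMIs of Pecam1, Kdr, Vegfc or Nrp2, before thinning; cell numbers are in brackets. Pecam1 reaches 63.8% in cluster 9, Kdr has 0 UMIs in the 405 cells of cluster 7, and Nrp2 is seen in 51.9% and 40.0% of clusters 7 and 13.

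Clusters 7 and 13 shared another pattern, with Vegfc and Nrp2 high and Vegfd low. Cluster 7, led by Fut9, Grid1 and Slc26a7, held 405 cells with lower Dcn than the other fibroblast-like clusters (1087 CPM, against 8393 or more) and a median of 4663 UMIs. Vegfc stood there at 67.4 CPM (56.9 to 79.3) and in cluster 13, led by Cdh4, Zfp536 and Myo16, at 73.3 (61.9 to 86.3). The other 6 clusters lay between 2.61 and 20.02 CPM. Clusters 7 and 13 together were 7.22-fold (6.17 to 8.43) above them, and the 2 were not apart from each other. They held 146 and 145 of the 787 Vegfc UMIs.

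Nrp2, a receptor for the product of Vegfc, was high in the same clusters, at 168 CPM (151 to 186) in cluster 7 and 87.0 (74.5 to 101) in cluster 13. Cluster 5 followed at 26.4 and the other 5 lay between 1.96 and 5.69. Together clusters 7 and 13 were 22.7-fold (19.4 to 26.7) above the rest. Vegfd ran the other way, at 18.9 CPM (13.6 to 25.7) in cluster 7 and 27.8 (21.0 to 36.2) in cluster 13, against 81.8 in cluster 5 and 162 to 357 in the other 5. Cluster 0 had the most, 357 CPM (345 to 369), with Vegfd in 78.5% of its 917 cells.

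Kdr set cluster 7 apart from cluster 13. No Kdr UMI was counted in the 405 cells of cluster 7, which at 3 UMIs allows a level of up to 1.39 CPM. At the depth of these cells this limits the level of the cluster and not the share of cells that express Kdr. The exact Poisson interval reached 1.70 CPM. The other fibroblast-like clusters together had 28.8 CPM, 20.8-fold above the level that 3 UMIs allow. The exact interval of the ratio of cluster 7 over them ran from 0 to 0.0593. Cluster 13 and cluster 5 each had 13.2 CPM, and the other 5 clusters 25.4 to 39.2. Of the 54 Kdr UMIs of cluster 5, 15 were in the barcodes of the endothelial gate. Nrp1 was also lowest in cluster 7, at 25.9 CPM (19.5 to 33.6), followed by 54.6 (44.8 to 66.0) in cluster 13. In cluster 7 the 10 richest cells held 45 of the 56 Nrp1 UMIs (80.4%), 18 of them in 1 cell, so that level rested on a few barcodes. Flt1 in cluster 7 was 13.4 CPM (8.97 to 19.2) from 29 UMIs, though none of its cells was in the endothelial gate, and 6.20-fold (3.93 to 9.53) above the other fibroblast-like clusters.

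In cluster 7, Vegfc, Nrp2 and Flt1 were more than 2-fold above the other fibroblast-like clusters (22.1% of genes were), and Vegfd, Kdr, Nrp1 and Pecam1 more than 2-fold below (16.3% of genes). In cluster 13, Vegfc and Nrp2 were above (7.45% of genes) and Vegfd, Kdr and Pecam1 below (11.1% of genes). Cells picked by subset genes had the same directions for the leading members, but most were cells of these same clusters. Of the 296 and 164 cells picked, 286 were in cluster 7 and 133 in cluster 13, so this is not a separate observation. The 296 cells with Crabp1 and Dkk2, genes known from the hair follicle dermis, had Nrp2 at 153 CPM against 11.8, Vegfc at 65.6 against 13.4 and Kdr at 0.571 against 28.5. The 164 cells with Cyp2f2 and C1qtnf3 had Vegfc at 63.9 CPM against 13.6 and Nrp2 at 73.8 against 15.3.

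In 2 larger sets of fibroblast-like cells the directions of Vegfd and Nrp2 were the reverse. The sets overlap, and the first is most of the 3940 fibroblast-like cells. All cells of clusters 7 and 13 are among those compared, so these contrasts are not separate from those above. The 2943 cells with Pi16 and Dpp4, genes known from the adventitial fibroblasts around vessels, had Kdr at 30.1 CPM against 11.9 in the other fibroblast-like cells, a ratio of 2.53 (2.01 to 3.22). They had Vegfd at 250.5 CPM against 110, and Nrp2 at 6.88 against 76.0. The 1808 cells with Cxcl13 and Mmp3 had Vegfd at 313 CPM against 120, Vegfc at 8.47 against 24.6, Nrp2 at 4.01 against 34.8 and Flt1 at 0.900 against 5.06. A smaller set, the 269 cells with 2 or more of Cilp, Thbs4 and Myoc, of which 186 were in cluster 5, had the directions of clusters 7 and 13 for Vegfc (30.4 CPM against 14.4) and Vegfd (111 against 238), while the ratio of Nrp2 had an interval that held 1. Pecam1 in those cells was 26.4 CPM against 31.6, with a ratio whose interval (0.656 to 1.05) held 1.

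With a clustering resolution of 0.5, the match of cluster 13 had Vegfc at 37.4 CPM, Nrp2 at 46.0 and Vegfd at 65.7. With doublets kept, Kdr in the match of cluster 7 was 2.15 CPM and Vegfd 45.2. Nrp1 in the match of cluster 7 was 1.31 CPM at resolution 2, and 57.7 CPM over its barcodes with no blood endothelial marker. Over all settings run, Vegfc lay between 60.6 and 94.9 CPM and Nrp2 between 149 and 195 in the match of cluster 7.

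**Figure D5:**
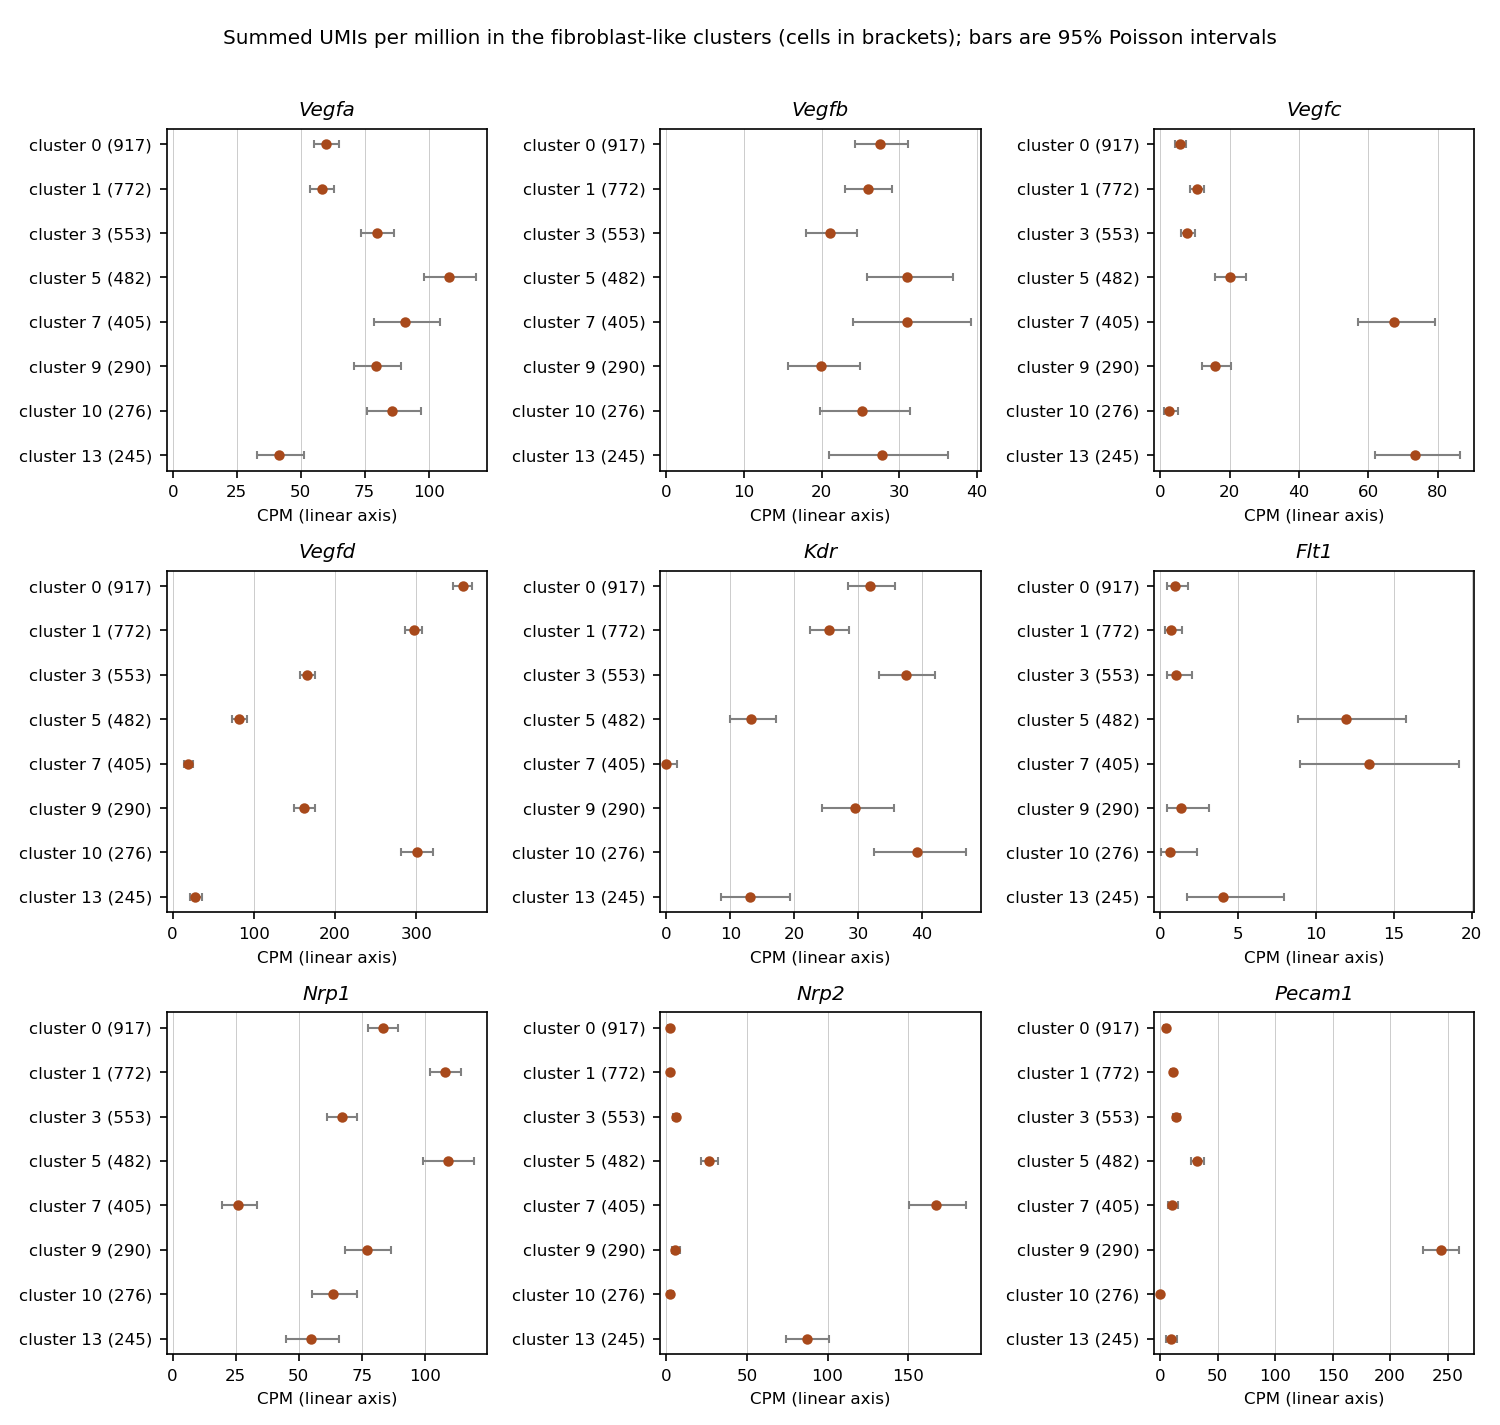
Each panel gives 1 gene, with CPM on a linear x axis and the 8 fibroblast-like clusters on the y axis (cells in brackets); points are CPM of the summed UMIs and bars are exact 95% Poisson intervals. Pecam1 rises to 244 CPM in cluster 9, while Vegfc and Nrp2 are high and Vegfd low in clusters 7 and 13.

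The other members varied less among fibroblast-like clusters. Vegfa ranged from 41.5 CPM in cluster 13 to 108 (98.1 to 118) in cluster 5, which was apart from the next cluster. Vegfb ranged from 19.9 to 31.0 CPM, and no neighbouring clusters in its order were apart. Cluster 10, led by Ptx3, Cxcl2 and Il6, genes of acute inflammation, had Kdr at 39.2 CPM, Vegfd at 301 and Pecam1 at 0.326 from 1 UMI.

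Other genes of the pathway were taken from lists written with earlier results of these cells known, and are read beside the same 20.2% of genes higher and 23.9% lower. Of the other VEGF family genes, Pgf, a ligand of Flt1, was higher in fibroblast-like cells (10.3 against 0.919 CPM) and reached 45.7 CPM in cluster 7. Flt4, the main receptor of VEGF-C and VEGF-D, had 22 UMIs in all, at 0.461 CPM in fibroblast-like and 0.0574 CPM in the other cells, below the 50 UMIs needed to enter the counts of genes. Among fibroblast-like clusters Flt4 was highest in cluster 5, at 2.69 CPM, and absent from clusters 3, 7, 10 and 13. Cluster 5 holds all barcodes of the endothelial gate, and their part in the fibroblast-like Flt4 level was not tested. Of 12 genes for VEGF processing and release from matrix, 7 were more than 2-fold higher and 3 lower, with a median log2 ratio of 2.25. Higher were the proteases Mmp2 (791 against 18.4 CPM) and Pcsk5 (156 against 2.30) and the matrix proteoglycan Hspg2 (205 against 6.52), and lower was the lysosomal protease Ctsd (203 against 421).

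Of the 11 measured semaphorin 3 and plexin genes, 4 were higher and 3 lower, with a median log2 ratio of 0.21. Sema3a (33.5 against 0.833 CPM) and Sema3b (34.6 against 0.775) were higher in fibroblast-like cells, and Sema3f, a ligand of Nrp2, was lower (0.760 against 15.6) and highest in keratinocyte-like cells (37.5). Plxnd1, a semaphorin receptor, was highest in macrophage-like cells (245 CPM). Of 14 oxygen-sensing genes, 1 was higher (Adm, the vasoactive peptide adrenomedullin, 171 against 11.9 CPM) and 6 lower, among them Hif1a (79.6 against 170) and Egln3 (1.06 against 9.16), with a median of -0.55.

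Receptor signalling genes had 2 higher and 4 lower of 11, with a median of -0.35, and Notch1 at 7.60 against 86.3 CPM. Of 4 measured angiopoietin and Tie genes, 3 were higher, with a median of 4.75. Angpt1, a ligand, stood at 47.8 against 4.05 CPM, and its receptor Tek, otherwise known from endothelium, at 193 against 3.13, while Tie1 was found in the gate. Of 6 known partners of the PECAM1 protein, the integrin subunit Itgb3 was higher (51.2 against 4.79 CPM), and Cd38, Cd177 and Ptpn6 lower, the last a phosphatase of blood cells at 1.18 against 74.1 CPM, with a list median of -2.19.

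The genes most like each member were found by Pearson's r of log2(CPM + 1) across the 23 clusters of 50 or more cells, among 12485 genes, as a description that shares library and clusters. Kdr was most like Tfpi2 (r = 0.92), Gm12796 and Dbn1, Vegfd most like Adm (0.93), Ppic and Plpp3, and Vegfc most like Slit2 (0.90), Kcnj8 and Runx1t1. Nrp1 was most like Nav1 (0.95), Renbp and Ifi204, and Nrp2 most like Plxna4 (0.83), Klf10 and Mertk. Pecam1 and Flt1 had the weakest likeness, with Patl2 (0.80), Mmp25 and Cnbd2 for Pecam1 and Alpk1 (0.79), Itpr1 and Rasgrp2 for Flt1. Vegfa was most like Rbpms (0.92), Phldb1 and Dram1, and Vegfb most like B230118H07Rik (0.95), Actr1b and Slc25a4.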

How the data were processed

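The unit of the deposited file is counts: raw UMIs for every gene in every barcode, with no normalization. The authors used Cell Ranger and mm10, per the submitters' processing notes, and the version, the calling of cells and the gene annotation are not given in the sources used here. Expression was not used to infer a condition, and the library of hashtags is not analysed here. The matrix had 8367 barcodes and 83725065 UMIs. Those under 200 genes or over 20% mitochondrial UMIs, 240 in all, were left out, and 326 doublets (4.01%), called by scrublet in Scanpy 1.11.5 at an expected rate of 6%, were kept apart.

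Counts scaled to 10000 were log transformed, and 2000 variable genes without the 9 described, 30 principal components and 15 neighbours gave Leiden clusters at resolution 1 (leidenalg 0.10.2). To be named, with the ending -like, a cluster needed 3 markers and 50% of a marker list, each detected in 10% of its cells and 2-fold over the middle of all clusters. UMIs were summed per group. Ratios have exact conditional intervals and shares Clopper-Pearson intervals (95%), and 0 UMIs were taken to allow 3. The calculation of ratios was tested on simulated data. Log2 ratios add 0.5 UMIs to each count.

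Besides the 9 genes, named genes are the 3 with the most UMIs and the 3 with the largest log2 ratio of each pathway list, the 3 most like each member, and those leading a cluster. Itgb3, Flt4 and the endothelial, platelet and fibroblast markers were named outside that rule, after their values were seen. The members and lists were chosen with earlier results of these data known.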

Additional observations from a re-analysis of the deposited data

How the results depend on the processing

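Alternatives were 500 genes per barcode, 10% mitochondrial UMIs, doublets kept, resolution 0.5 or 2, the members allowed among clustering genes, classes from each barcode's own markers, gates of 2 or 4 endothelial markers, every cell weighing the same, and no barcodes with 10 or more Dcn UMIs outside fibroblast-like cells. Leaving out cluster 5 or the gated barcodes, and a gate of 2 of 9 markers, were chosen after seeing the data. The fibroblast-like share of Kdr was 94.6% with doublets kept, 75.9% with classes from own markers (21 barcodes were then blood endothelial) and 88.6% without cluster 5, and that of Pecam1 was 46.4% with own markers and 61.1% without cluster 5. The endothelial gate held between 1.45% and 2.15% of Pecam1 and between 1.10% and 1.57% of Kdr in all settings run. Genes more than 2-fold higher in fibroblast-like cells numbered 3088 with 50 or more UMIs and 6224 with 1 or more. With every cell weighing the same, the log2 ratios of Flt1 and Nrp2 were -0.88 and -0.83, and that of Pecam1 with doublets kept was 0.94. Of 513 class levels 450 moved by less than counting error, as did 92 of 110 cluster levels, and no ratio changed sign. No paired analysis was possible because there is 1 pooled library without replicates. With 12 barcodes in the gate, Vegfb and Vegfc (0 and 2 UMIs there) could not be told from their level outside at this depth.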
